A study of Mus musculus with 8 samples.

Results

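Expression of 9 genes that mark inhibitory neurons was followed across 8 poly(A) RNA libraries of mouse prefrontal cortex. The genes were Gad1, Gad2, Slc32a1, Pvalb, Lhx6, Sox6, Erbb4, Dlx1 and Dlx5, taken by symbol from the count tables. All 9 of 9 were among the 24420 genes common to the libraries, and all 9 were among the 14809 that passed a filter on low counts. The 3 wild-type libraries came from male littermates. The 3 saline libraries came from males heterozygous for Shank3 without its C terminus (Shank3+/ΔC, exon 21 deleted, a line from Jackson Labs) that received saline. The 2 romidepsin libraries came from mice of the same mutant genotype that received romidepsin, an inhibitor of histone deacetylases, at 0.25 mg/kg into the peritoneum once daily for 3 days. The prefrontal cortex was collected 1 day after dosing ended. Sample labels give an age of 5 to 6 weeks and the series text 5 to 8 weeks. No treatment is named for wild type, so the mutation and the saline treatment cannot be told apart in the comparison of saline with wild type. Nothing says whether each library was a separate animal, so each p-value reflects the scatter among libraries, which may be technical.

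GABA, the main inhibitory transmitter of cortex, is made from glutamate by a pair of decarboxylases, encoded by Gad1 and Gad2, and is loaded into synaptic vesicles by the transporter encoded by Slc32a1. Cortical interneurons are born in the ganglionic eminences, where the homeobox factors Dlx1 and Dlx5 act early and Lhx6 and then Sox6 set the fate of cells from the medial eminence. Those cells become mainly parvalbumin (Pvalb) and somatostatin (Sst) interneurons, and the neuregulin receptor Erbb4 is concentrated in Pvalb cells. In whole tissue, fewer cells of a type and less RNA per cell cannot be told apart.

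Between 7783538 and 15156318 reads per library were counted on genes. The cell type label reads neurons, and transcripts of other cells were present in every library: the myelin gene Mbp stood at 1202 to 2442 CPM and the astrocyte gene Aqp4 at 123 to 205 CPM, against 1358 to 1793 CPM for Slc17a7, the vesicular transporter of excitatory cortical neurons. CPM are counts scaled to a common library size. Shank3 stood at 319 ± 26.1 CPM (SD, n = 3) in wild type, 290 ± 33.7 (n = 3) in saline and 314 ± 1.86 (n = 2) in romidepsin. Reads on the remaining exons are counted for the mutant copy too, so this level does not check the genotype.

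The members differed in how much they varied between libraries, and 3 promoters are shown: that of Gad1, the steadiest member, and those of Pvalb and Lhx6, the members with an unadjusted p under 0.05 in romidepsin against saline. Each sequence runs from 250 bases before to 50 bases after the first-listed start in RefSeq (GRCm38.p6), 5′ to 3′ on the gene's strand. Capitals mark TATAAA and the CCAAT and GGGCGG motifs, found on either strand. The motif TAATTA and the motif CACGTG were also searched on both strands and were in none of the 3. No marked motif overlaps another.
Gad1 promoter, chr2:70561879-70562178, plus strand: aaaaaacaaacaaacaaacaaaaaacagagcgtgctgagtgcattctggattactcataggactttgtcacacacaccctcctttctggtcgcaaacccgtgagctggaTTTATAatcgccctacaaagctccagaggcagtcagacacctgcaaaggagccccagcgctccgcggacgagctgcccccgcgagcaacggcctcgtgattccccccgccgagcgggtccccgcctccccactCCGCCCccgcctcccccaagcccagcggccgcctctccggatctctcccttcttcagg
Lhx6 promoter, chr2:36105359-36105658, minus strand: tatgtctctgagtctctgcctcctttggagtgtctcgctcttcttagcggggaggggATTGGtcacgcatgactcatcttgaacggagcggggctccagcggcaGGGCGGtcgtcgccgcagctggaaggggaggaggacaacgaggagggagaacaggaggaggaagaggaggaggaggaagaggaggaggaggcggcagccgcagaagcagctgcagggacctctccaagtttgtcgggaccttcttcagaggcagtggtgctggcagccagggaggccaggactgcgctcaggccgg
Pvalb promoter, chr15:78206351-78206650, minus strand: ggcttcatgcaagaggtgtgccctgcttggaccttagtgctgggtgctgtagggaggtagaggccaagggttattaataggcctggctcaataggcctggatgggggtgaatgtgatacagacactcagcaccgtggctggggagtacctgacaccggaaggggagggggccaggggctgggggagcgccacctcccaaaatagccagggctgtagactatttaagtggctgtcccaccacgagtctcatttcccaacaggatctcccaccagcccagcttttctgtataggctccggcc

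The Pvalb window held none of these 5 motifs and 5 CpG dinucleotides, the Lhx6 window held CCAAT and GGGCGG once each and 16 CpG, and the Gad1 window held TATAAA and GGGCGG once each and 21 CpG. Of 32851 such windows of 300 bases around RefSeq starts, 13.6% held TATAAA, 37.4% held CCAAT, 35.7% held GGGCGG, 5.29% held TAATTA and 7.15% held CACGTG. A match or its absence describes these letters only. In all, 8 of the 9 members had an entry, with 16 starts among them. Dlx5 had none.

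Gad1, Gad2, Slc32a1, Lhx6 and Dlx1 lie on chromosome 2, Pvalb on chromosome 15, Sox6 on chromosome 7, Erbb4 on chromosome 1 and Dlx5 on chromosome 6 (GENCODE M21, GRCm38). Per kilobase of annotated exon, Gad1 was the most abundant member, at 72.3 ± 2.29 CPM per kb (SD over the 8 libraries). Pvalb followed at 33.2 ± 6.83, Gad2 at 32.5 ± 1.86 and Slc32a1 at 26.8 ± 2.15 CPM per kb. The order of Pvalb and Gad2 was not settled, since Pvalb was the higher in 5 of 8 libraries. The transcription factor genes were lower, with Dlx1 at 7.40 ± 0.782, Lhx6 at 6.33 ± 0.922 and Sox6 at 4.04 ± 0.666 CPM per kb. Erbb4 at 2.41 ± 0.215 and Dlx5 at 2.35 ± 0.489 CPM per kb were lowest, and their ranges overlapped, as did those of Dlx1 and Lhx6 and of Gad2 and Slc32a1. Annotated exons of the antisense transcript Dlx1as cover 8.15% of the exon bases of Dlx1, and those of the antisense transcript Gm14205 cover 24.9% of Slc32a1. The strand setting of the counting is not given in the sources used here, so how reads on the shared bases were counted is not known.

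Of the GABA synthesis and loading genes, only Gad1 was nearly level across the groups. The lowest and highest libraries differed 1.15-fold for Gad2 and 1.27-fold for Slc32a1. Gad1 had 312, 302 and 322 CPM in wild type, 307, 313 and 311 in saline, and 326 and 331 under romidepsin. Its lowest and highest libraries differed 1.10-fold, and wild type and saline overlapped while both romidepsin libraries lay above all the others. Gad2 had 172, 173 and 180 CPM in wild type, 196, 186 and 191 in saline, and 196 and 199 in romidepsin. All 5 mutant libraries lay above all 3 wild-type libraries for Gad2. The share of all genes apart in this way, or with both romidepsin libraries above all others as for Gad1, was not counted. Slc32a1 had 73.8, 66.4 and 75.8 CPM in wild type, 74.5, 67.2 and 80.0 in saline, and 84.3 and 76.9 in romidepsin, where both libraries exceeded wild type and replicate 2 lay below the highest saline library.

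Pvalb, which encodes the calcium buffer of fast-spiking interneurons, and Dlx5 spread most. Pvalb had 36.6, 41.9 and 31.4 CPM in wild type, 25.7, 22.8 and 39.6 in saline, and 38.5 and 40.0 in romidepsin. Saline replicates 1 and 2 were its lowest libraries, and saline replicate 3 lay inside the range of the others, so the saline group overlapped both other groups. Lhx6, the factor that specifies cells of the medial eminence, had 23.2, 23.2 and 21.6 CPM in wild type, 20.5, 18.7 and 23.9 in saline, and 28.1 and 28.4 in romidepsin. Its romidepsin libraries lay above all the others, and saline replicates 1 and 2 were again the lowest. The share of all genes with such an order was not counted. Dlx5 had 3.37, 3.54 and 3.14 CPM in wild type, 2.75, 2.096 and 3.98 in saline, and 4.33 and 3.50 in romidepsin, from counts of only 20 to 47 per library. Its lowest libraries were the same saline replicates as for Pvalb and Lhx6.

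Sox6, Erbb4 and Dlx1 overlapped between all groups. Sox6, a factor acting after Lhx6, had 28.3, 34.9 and 45.9 CPM in wild type, 43.8, 30.6 and 39.6 in saline, and 41.8 and 37.4 in romidepsin. The spread within wild type covered all libraries of the other groups. Erbb4 had 27.8, 25.8 and 32.5 CPM in wild type, 32.9, 26.3 and 29.6 in saline, and 28.7 and 29.9 in romidepsin. Dlx1 had 26.6, 25.8 and 34.2 CPM in wild type, 28.5, 31.0 and 34.4 in saline, and 32.1 and 30.9 in romidepsin. Sox6 is also transcribed in oligodendrocyte precursors. The summed level of 8 precursor markers, all 8 of which passed the filter, was 345, 412 and 491 CPM in wild type, 410, 317 and 413 in saline, and 433 and 417 in romidepsin. Both Sox6 and this sum were lowest in wild-type replicate 1 and saline replicate 2 and highest in wild-type replicate 3. Its part in the Sox6 values was not tested.

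**Figure D1:**
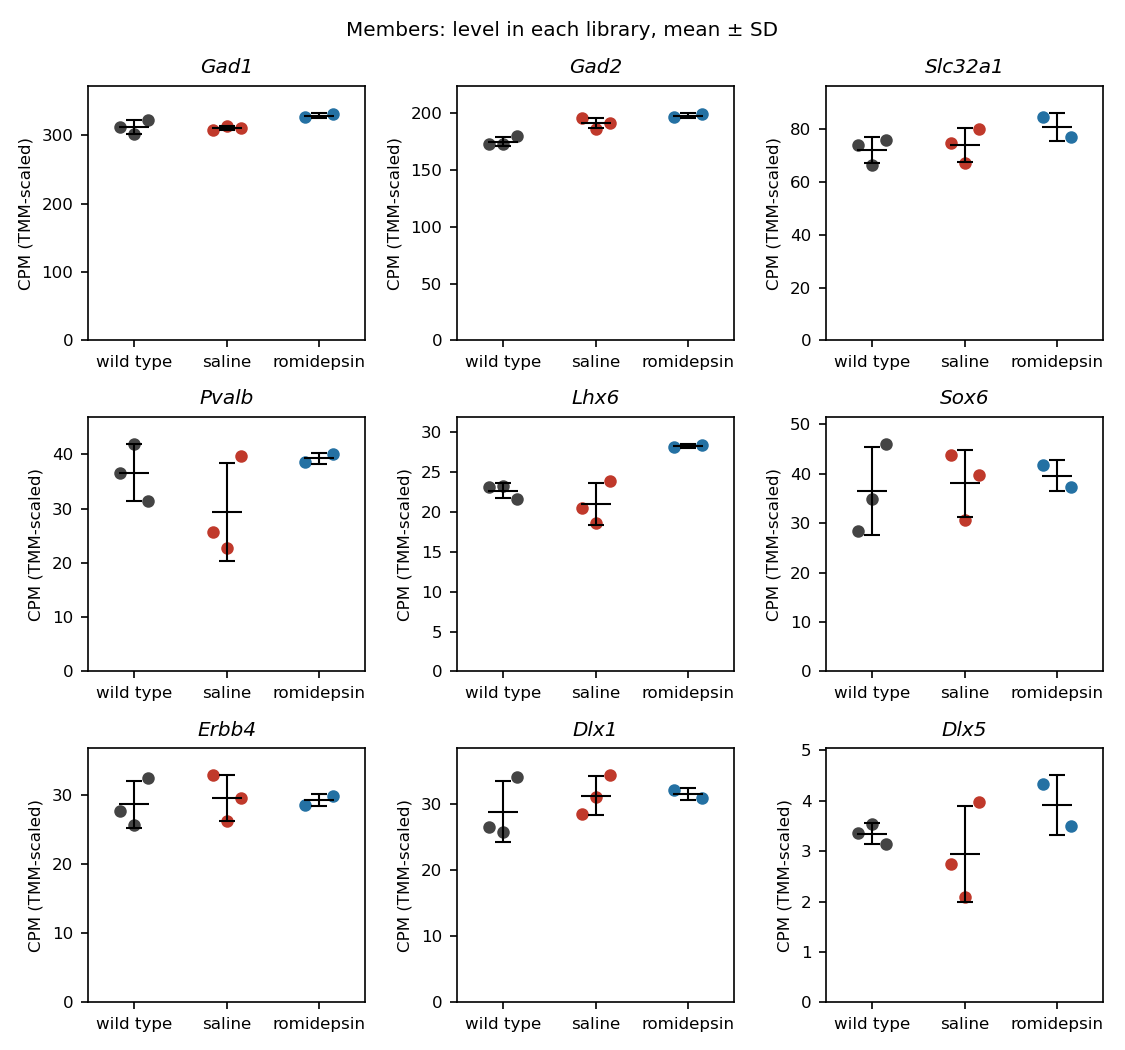
Level of each member (CPM, y axis from 0) in the wild-type, saline and romidepsin libraries. Points are libraries, and bars are the mean and SD of a group (n = 3, 3 and 2). Gad1 and Gad2 lie in narrow bands, while the saline libraries of Pvalb run from 22.8 to 39.6 CPM.

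**Figure D2:**
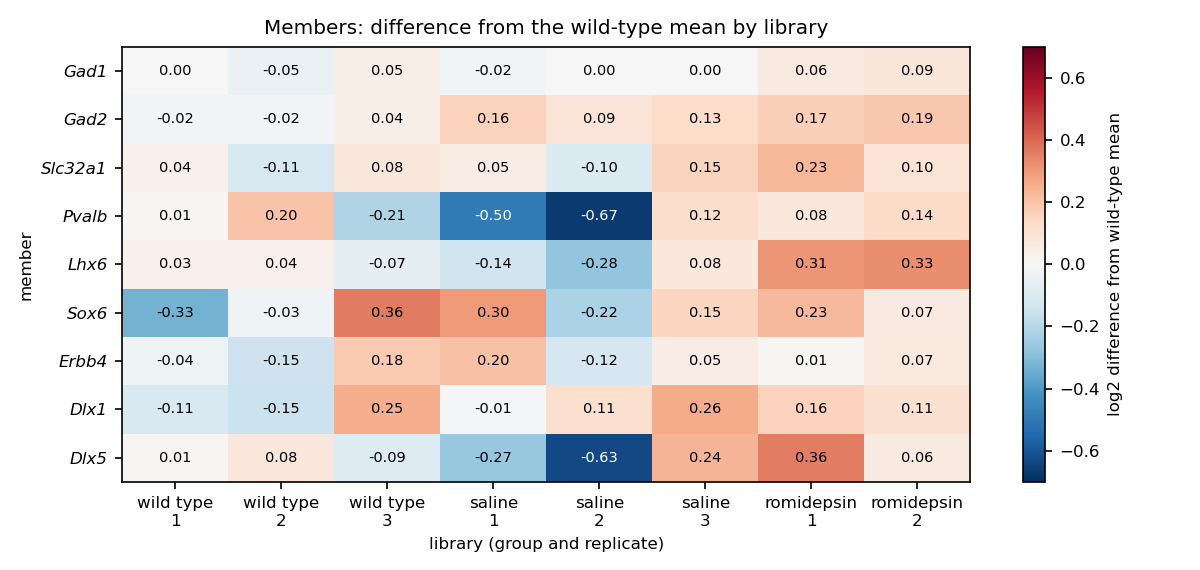
Log2 difference of each member (rows) from its wild-type mean in each library (columns), with blue lower and red higher. Pvalb and Dlx5 in saline replicate 2 have the lowest values, -0.67 and -0.63, and all values of both romidepsin libraries are above 0.

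Saline against wild type compared the mutant genotype given saline with littermates of no named treatment. None of the 9 members passed edgeR's quasi-likelihood test at a Benjamini-Hochberg adjusted p under 0.05, where 0.00675% of all genes tested passed. None had an unadjusted p under 0.05 either, against 8.39% of all genes (3.59% higher and 4.8% lower), and none passed with DESeq2 or limma-voom. Gad2 came nearest in rank: 175 ± 4.13 CPM (n = 3) against 191 ± 4.56 (n = 3), or 1.09-fold of wild type (95% interval 0.990 to 1.21, adjusted p = 0.630). It was the 1 member whose groups did not overlap, a separation that 12.6% of all genes showed, 6.26% as higher and 6.36% as lower in saline. Pvalb stood at 36.6 ± 5.22 and 29.4 ± 8.97 CPM, or 0.792-fold (interval 0.609 to 1.03, adjusted p = 0.630). Its log2 fold change of -0.34 became -0.59 when saline replicate 3 was left out and -0.20 when replicate 2 was. For Gad1 the ratio to wild type was 0.995-fold, with an interval of 0.900 to 1.10. Slc32a1 was at 1.03-fold (interval 0.902 to 1.17) and Erbb4 at 1.04-fold (interval 0.877 to 1.23). The interval for Dlx5, the member with the fewest reads, was wide, from 0.584- to 1.28-fold. Of the 9 members 5 were higher and 4 lower (median log2 fold change 0.04), beside 51.3% higher and 48.7% lower and a median of 0.0047 over all genes. The count of higher members was 3 without wild-type replicate 2 or without saline replicate 1, and without the latter the median was -0.039.

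The effect of the drug within the mutant genotype was read from romidepsin against saline. Again 0 of 9 members passed in edgeR, DESeq2 or limma-voom, beside 0% of all genes in edgeR. At an unadjusted p under 0.05 there were 2 members, Lhx6 and Pvalb, both higher, where 3.26% of all genes had such a p, 1.73% as higher and 1.53% as lower. Lhx6 stood at 21.0 ± 2.64 CPM in saline (n = 3) and 28.2 ± 0.229 in romidepsin (n = 2). This was 1.35-fold (interval 1.13 to 1.62), a log2 fold change of 0.43 (SE 0.12) with an unadjusted p of 0.00309 and an adjusted p of 1.00 in edgeR. The value for Lhx6 was 0.36 to 0.52 with any 1 library left out. Pvalb stood at 29.4 ± 8.97 and 39.3 ± 1.07 CPM, 1.35-fold (interval 1.01 to 1.82), with an unadjusted p of 0.0449 in edgeR. Its log2 fold change of 0.44 became 0.30 when saline replicate 2 was left out and 0.68 when replicate 3 was. Dlx5 was also at 1.35-fold, a log2 fold change of 0.44 with an interval from -0.19 to 1.07. Gad1, Gad2 and Lhx6 were the 3 members whose romidepsin libraries all lay above all saline libraries, which 10.8% of all genes showed, while no member lay wholly below, as 10.2% of all genes did. Gad1 was at 1.06-fold (interval 0.947 to 1.18) and Gad2 at 1.03-fold (interval 0.927 to 1.16). For Sox6, Erbb4 and Dlx1 the log2 fold changes were 0.05, -0.02 and 0.02. Of the 9 members 8 were higher, with a median log2 fold change of 0.08, beside 49% higher, 51% lower and a median of -0.0029 over all genes. The members' median was 0.13 without saline replicate 1 or without romidepsin replicate 2, and 0.060 without romidepsin replicate 1. Without saline replicate 2, 7 members were higher.

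Romidepsin against wild type shares its libraries with the comparisons above and adds no separate samples. With 0 of 9 members passing in edgeR, DESeq2 or limma-voom, 0.00675% of all genes passed. Relative to wild type, Lhx6 was at 1.25-fold (interval 1.04 to 1.49) and Gad2 at 1.13-fold (interval 1.01 to 1.26). Their unadjusted p-values in edgeR were 0.0184 and 0.0311, a level that 3.24% of all genes reached, 1.46% as higher and 1.78% as lower. Both had an adjusted p of 0.999. Gad1, Gad2, Slc32a1 and Lhx6 were higher without overlap, as were 9.34% of all genes, and 9.08% of genes were lower without overlap. Pvalb was at 1.07-fold, with an interval of 0.803 to 1.43. All 9 members had a log2 fold change above 0, from 0.03 (Erbb4) to 0.32 (Lhx6), with a median of 0.12 where 50% of all genes were higher. Some marker lists of other cells also went 1 way. Microglia markers were higher in 10 of 10 (median 0.15) and meningeal markers in 10 of 10 (median 0.29). Oligodendrocyte markers were lower in 11 of 11 (median -0.30), and the remaining marker lists were mixed. Leaving out 1 wild-type library changed the sign of Sox6 (-0.03 without replicate 1), Erbb4 (-0.05 without replicate 2) or Pvalb (-0.0093 without replicate 3).

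**Figure D3:**
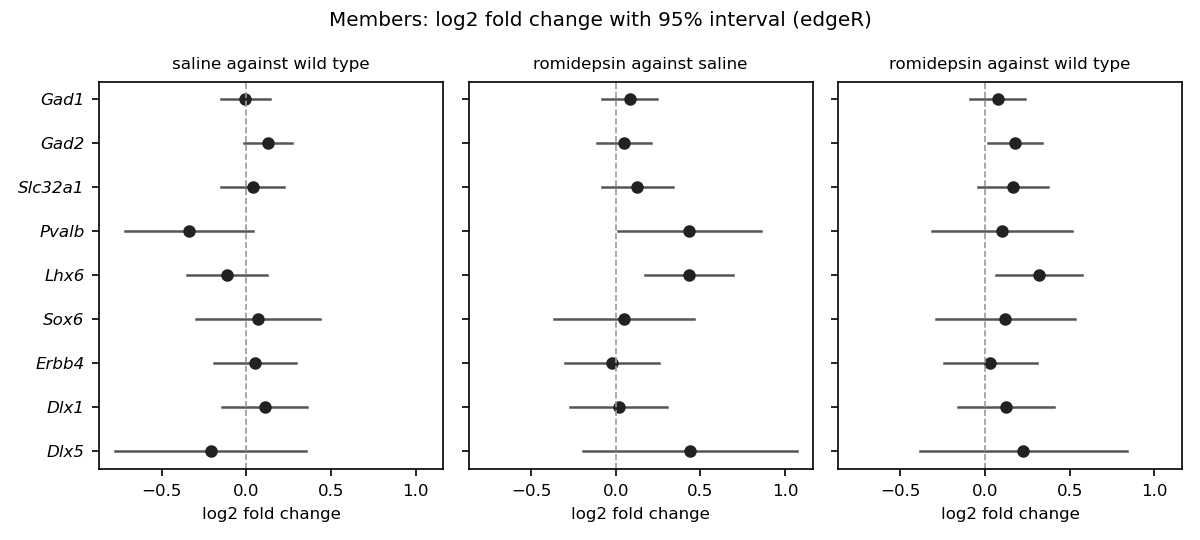
Log2 fold change (x axis) of each member in the 3 comparisons, as the edgeR estimate (point) with its 95% interval (line). The intervals of Lhx6 and Pvalb lie above 0 in romidepsin against saline, and those of Lhx6 and Gad2 in romidepsin against wild type.

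Ratios between members do not depend on how libraries are scaled. The ratio of Gad2 to Gad1, the pair of decarboxylase genes, was 0.554, 0.572 and 0.558 in wild type, 0.636, 0.597 and 0.615 in saline, and 0.602 and 0.602 in romidepsin. It was higher in all 5 mutant libraries than in all 3 wild-type libraries. For this ratio and those below, the share of other gene pairs so apart was not counted. Saline differed from wild type by 0.13 on the log2 scale, with p = 0.10 in an exact two-sided permutation test, the smallest p that 3 against 3 allows, and 0.40 adjusted over 12 tests (4 ratios in 3 comparisons). The ratio of Lhx6 to Gad1 was 0.0749, 0.0774 and 0.0674 in wild type, 0.0673, 0.0602 and 0.0772 in saline, and 0.0866 and 0.0863 in romidepsin. Both romidepsin libraries exceeded all others, and the difference from wild type was 0.24 (exact permutation p = 0.10, the smallest that 2 against 3 allows, adjusted 0.40). The ratio of Pvalb to Gad1 was 0.118, 0.139 and 0.0980 in wild type, 0.0843, 0.0736 and 0.128 in saline, and 0.119 and 0.121 in romidepsin. Its groups overlapped except for the position of saline replicates 1 and 2 below every other library. For Slc32a1 to Gad1 the ratio lay between 0.215 and 0.259 in all 8 libraries, with no group apart.

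The 3 genes closest to Pvalb across libraries were chosen for that likeness, so the libraries in which they are low are a description. Closeness was the root mean square difference of the log2 level, after subtraction of each gene's mean, over 8 libraries, among 13331 genes. Vamp1, a vesicle fusion gene, was closest, at 0.09. It had 103, 107 and 82.9 CPM in wild type, 64.9, 64.8 and 98.2 in saline, and 91.9 and 94.3 in romidepsin. Kcnab3, a potassium channel subunit gene, followed at 0.11 and had 36.6, 39.3 and 29.7 CPM in wild type, 27.9, 25.4 and 37.8 in saline, and 34.4 and 35.9 in romidepsin. Iglon5, a cell adhesion gene, came next at 0.12. The summed level of 10 meningeal markers, all 10 of which passed the filter, was 107, 103 and 169 CPM in wild type, 253, 211 and 108 in saline, and 186 and 129 in romidepsin. It was highest in saline replicates 1 and 2, the libraries lowest for Pvalb, Lhx6 and Dlx5, and above the other wild-type libraries in replicate 3. Its part in the Pvalb values was not tested.

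**Figure D4:**
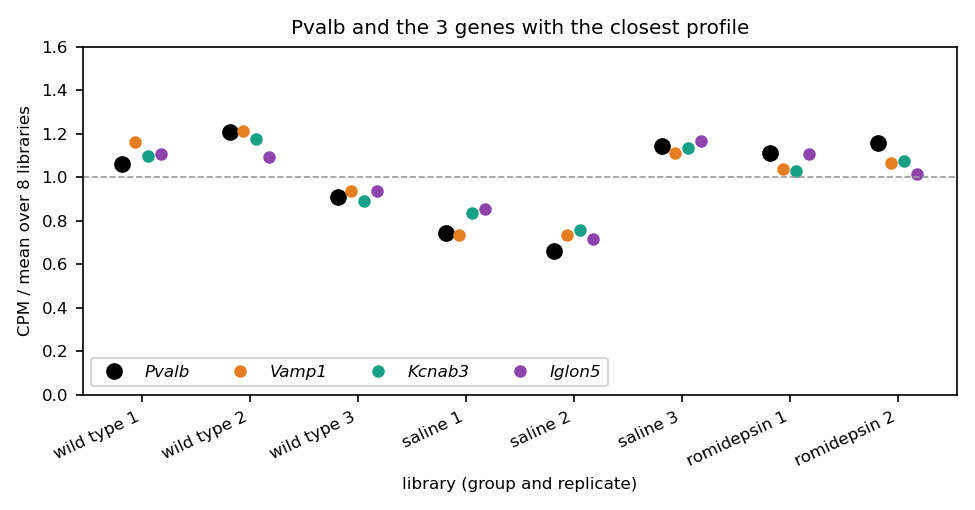
Level of Pvalb, Vamp1, Kcnab3 and Iglon5 in each library (x axis) as a ratio to the gene's mean over the 8 libraries (y axis). All 4 genes are lowest in saline replicates 1 and 2, a likeness by which the 3 other genes were chosen.

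The nearest genes to Lhx6 were Frmpd1, Npy and Ppp1r18, each at 0.08. They were chosen for likeness to Lhx6, itself highest in both romidepsin libraries, so their levels there are a description. Npy, a neuropeptide of interneurons, had 66.4, 71.5 and 70.9 CPM in wild type, 69.9, 55.7 and 71.3 in saline, and 81.0 and 84.4 in romidepsin, where both libraries exceeded all others. The nearest genes to Gad1 were Wdr83os, Tom1l2 and Ttc7b, at 0.03 each, where Gad1 itself had an SD of 0.04 on that scale.

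Genes listed for fast-spiking cells and the perineuronal net, the matrix around them, were mostly lower in saline than in wild type. How much of their RNA came from other cells was not tested. Of 27 listed genes, all 27 of which were tested, 22 were lower and 5 higher (median log2 fold change -0.11, against 0.0047 over all genes), and 19 to 22 were lower with any 1 library left out. Leaving out replicate 3 of saline gave a median of -0.19, and leaving out replicate 3 of wild type gave -0.18. Without replicate 2 of saline the median was nearer 0, at -0.074. Cplx1, Ncan, Kcna2 and Bcan weigh most in the summed level of the list (wild-type means 620, 345, 335 and 261 CPM). The sum was 2811, 2913 and 2680 CPM in wild type, 2495, 2403 and 2721 in saline, and 2881 and 2903 in romidepsin. Saline replicates 1 and 2, with the highest meningeal sums, were again lowest, and the part of those cells in this count was not tested. Endothelial and mural markers were also mostly lower in saline than in wild type (8 of 11, median -0.38) and higher in romidepsin than in saline (11 of 11, median 0.27), and their part was not tested. Kcnab3 is on this list, and Pthlh is on it and on the subclass list. None passed in edgeR (smallest adjusted p = 0.227). At an unadjusted p under 0.05 there were 5, all lower, where 4.8% of all genes were lower at that level. Groups did not overlap for 4, all lower, as for 6.36% of all genes. The neurofilament gene Nefh had 60.6, 70.5 and 48.7 CPM in wild type and 40.9, 38.9 and 44.4 in saline. All saline libraries of Nefh lay below all wild-type libraries (log2 fold change -0.54, SE 0.12). Kcnc1, a fast potassium channel gene, stood at 202 ± 5.65 and 175 ± 14.9 CPM, Kcna1 at 183 ± 22.6 and 150 ± 14.3, and the net proteoglycan gene Acan at 4.60 ± 0.412 and 3.03 ± 0.392. In romidepsin against saline, which uses the same saline libraries, 22 of the 27 were higher and 5 lower (median 0.15). Without saline replicate 2 there were 18 higher (median 0.12), and without saline replicate 3 the median was 0.24. Nefh stood at 58.7 ± 4.16 CPM and Kcnc1 at 211 ± 6.51 CPM under romidepsin (n = 2). Again none passed (smallest adjusted p = 0.9996 in edgeR). At an unadjusted p under 0.05 there were 5, all higher, where 1.73% of all genes were higher at that level. Romidepsin and wild type had 15 of 27 higher (median 0.03), or 10 (median -0.045) without wild-type replicate 3 and 13 (median -0.0096) without romidepsin replicate 2.

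Markers of interneuron subclasses were more often higher than lower in saline. Of 29, all 29 tested, 18 were higher in saline than in wild type (median 0.14, or 0.074 without wild-type replicate 1 and 0.081 without replicate 2), beside 51.3% of all genes, and none passed in edgeR (smallest adjusted p = 0.283). At an unadjusted p under 0.05, 5 were higher and 2 lower, beside 3.59% and 4.8% of all genes. In romidepsin against saline 15 of the 29 were higher (median 0.03, or -0.013 without romidepsin replicate 2), and in romidepsin against wild type 23 (median 0.10, or 0.046 without wild-type replicate 2 and 0.17 without replicate 3). Crhbp, which binds corticotropin-releasing hormone, had a mean of 22.5 ± 1.58 CPM in wild type, 31.0 ± 3.56 in saline and 29.6 ± 2.62 in romidepsin, with saline above wild type in all libraries. Id2 stood at 103 ± 1.42 and 119 ± 3.86 CPM and the calcium buffer gene Calb1 at 109 ± 7.24 and 133 ± 20.2. The 2 lower markers, named after their values were seen, were Tac1 and Chodl. Tac1 stood at 17.9 ± 1.27 and 13.6 ± 1.94 CPM, and Chodl, with few reads, at 1.08 ± 0.297 and 0.437 ± 0.201. Saline and wild type did not overlap for 3 higher and 2 lower markers, beside 6.26% and 6.36% of all genes. Sst, the marker of the other large class that Lhx6 specifies, had 207, 196 and 215 CPM in wild type, 247, 178 and 267 in saline, and 265 and 260 in romidepsin, named here after its values were seen. Sst was lowest in saline replicate 2, the lowest library for Pvalb too, and lay above all wild-type libraries in saline replicate 1.

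Among 18 other interneuron transcription factor genes 16 were tested, and 9 were higher and 7 lower in saline than in wild type (median 0.02). That direction was not stable: 6 were higher without saline replicate 1 (median -0.067), 8 without wild-type replicate 2 (median -0.033), 11 without saline replicate 2 (median 0.085) and 12 without wild-type replicate 3 (median 0.11). Romidepsin against saline had 11 higher and 5 lower (median 0.04), or 8 higher without saline replicate 2 (median -0.0099). None passed in edgeR in either comparison, and at an unadjusted p under 0.05 there were 2 lower in the first, beside 4.8% of all genes, and 1 higher in the second, beside 1.73%. Sp9, a zinc finger factor of developing interneurons, had 4.38, 4.44 and 6.98 CPM in wild type, 3.47, 2.20 and 4.62 in saline, and 4.24 and 5.35 in romidepsin. Saline replicates 1 and 2 were its lowest libraries, and saline replicate 3 lay within wild type. Its log2 fold change of saline from wild type was -0.63 (SE 0.28), with an adjusted p of 0.565 in edgeR.

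The 16 genes listed for GABA uptake, breakdown, precursor supply and the inhibitory postsynapse were all tested. They include Slc6a8, a creatine transporter gene, at 110 ± 6.17 CPM in wild type and 94.1 ± 13.3 in saline. Of the 16 genes, 10 were higher in each of the 3 comparisons, with medians of 0.02, 0.06 and 0.03. Without wild-type replicate 1 the first median was -0.0057, with 8 of 16 higher. None passed in edgeR. Slc6a13, a GABA transporter gene of the meninges that is also on the meningeal list, stood at 9.22 ± 1.92 CPM in wild type, 13.2 ± 3.97 in saline and 10.8 ± 0.807 in romidepsin. Slc38a5, an amino acid transporter gene, stood at 4.48 ± 0.206, 3.22 ± 0.451 and 4.68 ± 0.0730 CPM. Of 17 neuregulin and ErbB4 partner genes 15 were tested, with medians of 0.0052, -0.0099 and 0.01 in the same order, all so near 0 that leaving out 1 library changed their sign, and none passed in edgeR. Nrg3, an ErbB4 ligand gene, stood at 41.5 ± 5.37, 47.6 ± 2.07 and 49.9 ± 4.60 CPM.

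**Figure D5:**
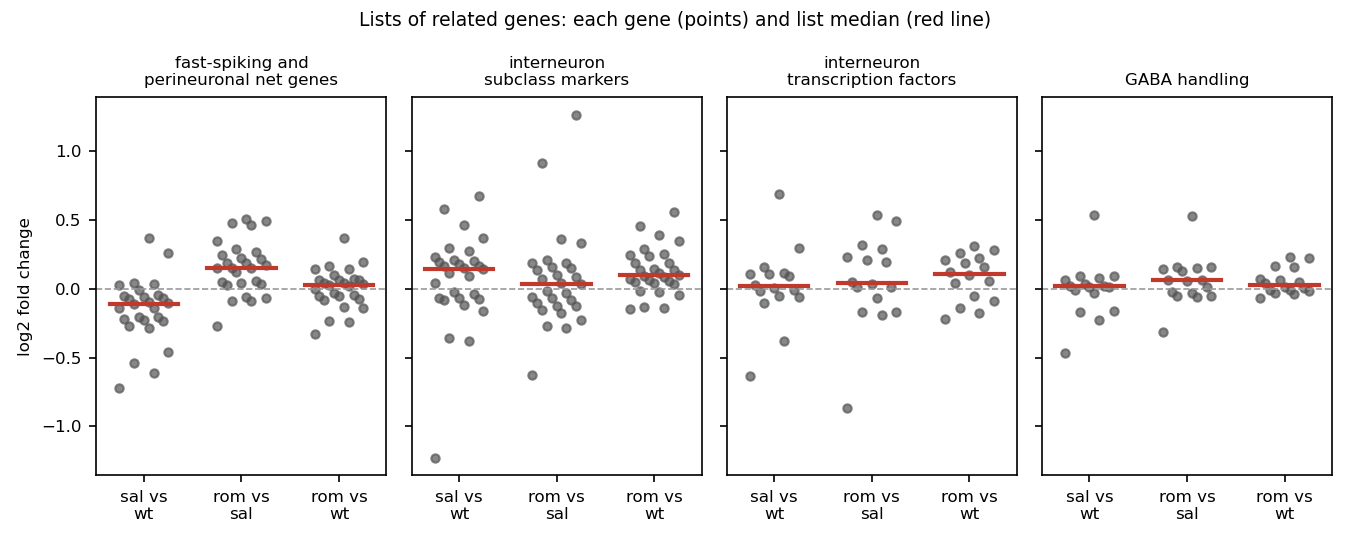
Log2 fold change (y axis) of each tested gene of 4 lists (points) in saline against wild type, romidepsin against saline and romidepsin against wild type, with the list median as a red line. The fast-spiking and perineuronal net genes have medians of -0.11, 0.15 and 0.03.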

How the data were processed

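The authors deposited raw counts for each gene symbol, in 1 table for each library, not normalized. The submitters' processing notes name bcl2fastq 2.17.1.14, TopHat2 2.1.1, HTSeq 0.6.1 and the build mm10/GRCm38. The sources used here give neither the annotation nor the strand setting. Summary entries, present in 7 tables, were left out, and 32.4% to 35.3% of the counts in those tables fell on genes.

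In edgeR 4.0.16 (R 4.3.3), genes were filtered with filterByExpr, libraries scaled with TMM, and 1 robust quasi-likelihood fit made over all 8 libraries. Calls used a Benjamini-Hochberg adjusted p under 0.05 over 14809 genes. Levels are TMM-scaled CPM, log2 levels used a prior count of 2, and intervals are at 95%. Alternatives were DESeq2 1.42.0, limma-voom (limma 3.58.1), 2 other scalings, no filter, pairwise fits, a replicate block and leaving out each library. The scripts were tested on simulated data. No libraries of a group held identical counts.

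The members and lists were chosen with earlier results of these data known. Named genes were all members, Shank3, the genes of smallest p in each list, and the 3 nearest genes of Gad1, Pvalb and Lhx6. Some genes that this rule names are not reported here. List counts without each library were added after the values were seen. Exon lengths are from GENCODE M21.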

Additional observations from a re-analysis of the deposited data

How the results depend on the processing

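No member passed in any of the 15 alternative settings of any comparison. Pvalb, Lhx6 and Dlx5 stayed lower in saline than in wild type and higher in romidepsin than in saline in all 15 settings. Gad2 and Dlx1 stayed higher in saline than in wild type in all 15. Gad1, Gad2 and Slc32a1 stayed higher in romidepsin than in saline in all 15. Every setting draws on the same saline libraries, so the settings are not separate evidence. The number of genes called over the whole table moved. For saline against wild type it was 1, against 31 in DESeq2, 12 without a filter on low counts, 2 with only the 2 groups fitted, and 1 to 54 with a library left out (54 without wild-type replicate 3). For romidepsin against saline it was 0, and 0 to 3 with a library left out. For romidepsin against wild type it was 1, against 0 with total-count scaling, 2 without the filter, 4 in DESeq2, and 0 to 3 with a library left out. The cause was not tested. Scaling moved the median of all genes by less than 0.1.

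Replicate numbers are shared between groups. Deviations from the group mean correlated at -0.28 to 0.13 between same-numbered libraries of different groups, and at -0.23 to 0.35 between differently numbered ones. In groups this small such deviations are tied to each other, so the correlations cannot tell whether a number stands for a shared batch. With the replicate block 4, 0 and 0 genes were called in the 3 comparisons, the members' median was 0.16 in place of 0.08 in romidepsin against saline and 0.21 in place of 0.12 in romidepsin against wild type, and Erbb4 in romidepsin against saline was 0.030 in place of -0.022.

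With a library left out, the number of members higher in saline than in wild type ranged from 3 to 6. Log2 fold changes near 0 changed sign: in saline against wild type Gad1 ranged from -0.033 to 0.012, Slc32a1 from -0.025 to 0.10, Sox6 from -0.081 to 0.27 and Erbb4 from -0.039 to 0.15. In romidepsin against saline Sox6 ranged from -0.083 to 0.18, Erbb4 from -0.10 to 0.070 and Dlx1 from -0.052 to 0.084. In romidepsin against wild type Pvalb ranged from -0.0093 to 0.20, Sox6 from -0.031 to 0.31 and Erbb4 from -0.046 to 0.12. Of the log2 ratio differences, Pvalb to Gad1 ranged from -0.10 to 0.16 in romidepsin against wild type, and Slc32a1 to Gad1 from -0.014 to 0.12 in saline against wild type and from -0.032 to 0.12 in romidepsin against saline.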

Other observations

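GABA neurons are also abundant in striatum and olfactory bulb, and the members are transcribed there. Striatal markers (9 of 13 tested) summed to 242 to 279 CPM in wild type, 255 to 262 in saline and 272 to 278 in romidepsin. Olfactory bulb markers (11 of 14 tested) summed to 259 to 315, 314 to 401 and 296 to 310 CPM. Eomes, an olfactory bulb gene, had 3.77 and 4.87 CPM in saline replicates 2 and 3 and 0.0985 to 0.941 in the other 6 libraries. Of the 11 olfactory bulb markers 10 were higher in saline than in wild type (median 0.69) and 10 lower in romidepsin than in saline (median -0.87), with none passing in edgeR. Their part in the members' values was not tested. Markers of excitatory neurons (12 of 12 tested) summed to 6694 to 7271, 6637 to 6997 and 7252 to 7355 CPM.

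Septal, thalamic and hypothalamic markers (6 of 13 tested) summed to 38.4 to 60.6, 43.1 to 63.5 and 43.7 to 45.6 CPM. Oligodendrocyte markers (11 of 11 tested) were lower in romidepsin than in saline in 11 of 11, with a median log2 fold change of -0.21 and none passing in edgeR, and the summed level was 3148 to 5779 CPM in saline and 3458 to 3992 in romidepsin. Astrocyte markers summed to 4896 to 6408, 4946 to 6285 and 5424 to 5631 CPM, and endothelial and mural markers to 303 to 376, 231 to 308 and 296 to 346 CPM. Of the 11 endothelial and mural markers 6 were lower in saline than in wild type at an unadjusted p under 0.05 in edgeR. At that level 4.8% of all genes were lower, and none of the 11 passed. Of the 10 meningeal markers 10 were higher in saline than in wild type (median 0.63) and 10 lower in romidepsin than in saline (median -0.31). In saline against wild type 7 of the 10 were higher at an unadjusted p under 0.05 in edgeR, and none passed. Of all genes 3.59% were higher at that level. Microglia markers (10 of 10 tested) summed to 525 to 723, 579 to 651 and 640 to 730 CPM. The share of each cell type in the tissue was not measured apart from these transcripts.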
